A study of Rattus norvegicus with 47 samples.

Results

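Splicing regulator RNA-binding proteins are the proteins that bind a new transcript and decide which of its exons are kept. The genes described here were taken from 2 tables of read counts of rat brain, one for striatum and one for cerebellum. They are all genes whose symbol begins with Srsf and a number, Hnrnp, Luc7l, Rbfox, Celf, Nova, Mbnl, Ptbp or Tra2, and whose mean reached 1 CPM (counts divided by the library total and scaled to counts-per-million) in either region. The names gave 50 genes of the 15319 in each table, and 48 met the minimum, all of them in both regions. Hnrnpc, at 0.05 CPM in striatum and 0.07 CPM in cerebellum, and Mbnl3, at 0.01 CPM in striatum and 0.0 CPM in cerebellum, were below it. The 48 members were 17 Hnrnp, 11 Srsf, 6 Celf, 3 Luc7l, 3 Ptbp, 3 Rbfox, 2 Mbnl, 2 Tra2 genes and 1 Nova gene.

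The animals were male and female Sprague-Dawley rats that arrived at 28 days of age. They were assigned to a group at 39 days (males) or 42 days (females), and then inhaled PCB52, a tetrachlorinated biphenyl found in air, through the nose for 4 h each day during 28 days, or were sham-exposed. Striatum gave libraries of 6 PCB52 males, 6 PCB52 females, 4 sham males and 6 sham females, and cerebellum gave 5, 6, 5 and 6 in that order. Tissue punches were sequenced, and 21 rats gave a library of both regions. No transgene or mutation was involved, and the labels state neither the dose inhaled nor the air that the sham rats breathed. Total counts ran from 5684508 to 8914523 per library in striatum and from 6524400 to 15865054 in cerebellum.

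Splicing regulators act in opposed groups. Serine/arginine-rich (SR) proteins and their relatives Tra2a and Tra2b mostly promote the use of an exon, heterogeneous nuclear ribonucleoproteins (hnRNPs) and polypyrimidine tract binding proteins (Ptbp) often repress it, and Rbfox, Nova, Mbnl and Celf proteins do either, depending on where they bind. In brain, Rbfox, Nova, Celf, Mbnl and Ptbp proteins set the neuron-specific exons of ion channels, synaptic proteins and cytoskeletal proteins, and several of them are present in some neuron types and absent from others.

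The libraries fitted their labelled tissue. The mean log2 CPM of 12 markers of striatal projection neurons was 8.46 to 9.68 in striatum and 2.56 to 3.53 in cerebellum. For 10 markers of cerebellar granule cells it was 0.95 to 5.08 in striatum and 8.11 to 8.88 in cerebellum. The striatal maximum of 5.08 belonged to PCB52 female 22. In 5 further libraries a marker list of another tissue stood more than 2 log2 units above the median of the region, namely the choroid plexus in striatum PCB52 female 20 and cerebellum sham male 1, cortical neurons in striatum PCB52 female 14 and PCB52 male 19, and the olfactory bulb in striatum sham female 12. Transcripts of both sexes occurred together in 5 libraries, namely striatum sham male 3, cerebellum sham females 8 and 10, and the cerebellar libraries labelled sham males 9 and 11. In the library labelled cerebellum sham male 9 they went against the label, with 264 CPM of Xist, made from the inactive X of females, and 9.90 CPM of the Y-linked Eif2s3y, against at most 0.72 and at least 58.97 CPM in sham males 1, 3 and 7. The library labelled cerebellum sham male 11 had 303 CPM of Xist and 30.5 CPM of Eif2s3y, and cerebellum sham female 8 had 153 and 31.7 CPM. All 5 libraries were kept in the groups of their labels. The results for males and between the sexes are also given without the libraries of both sexes, more briefly for striatum. The mean of 82 ribosomal protein genes ranged from 7.04 to 8.34 in striatum and from 6.96 to 9.09 in cerebellum. Every comparison below was also run without the first 6 libraries, without the 5 of mixed sex and without the 4 cerebellar libraries in which the ribosomal mean exceeded 8.5.

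The regions differed more than any other groups. In striatum relative to cerebellum, edgeR called 40 of 48 members (83.3%) at an adjusted p under 0.05, while it called 10063 of all 12446 genes tested (80.9%). Of the members, 14 (29.2%) were higher and 26 (54.2%) lower in striatum, against 38.5% higher and 42.4% lower among all genes. The median log2 fold change was -0.15 over the members and -0.04 over all genes. In 12 of 48 members the 22 striatal and the 22 cerebellar libraries did not overlap, while 21.5% of all genes had no overlap. Both shares lay near those of all genes. The size and the direction varied by family. Of 6 Celf genes, 5 were higher and 0 lower in striatum, while of 17 Hnrnp genes 2 were higher and 14 lower, and of 11 Srsf genes 1 was higher and 7 lower. Only 6 members differed by over 2-fold, namely Celf2, Celf3, Celf5, Celf6 and Ptbp3, which were higher in striatum, and Rbfox3, which was lower. In bulk tissue, fewer cells of a type and less RNA per cell cannot be told apart.

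**Figure D1:**
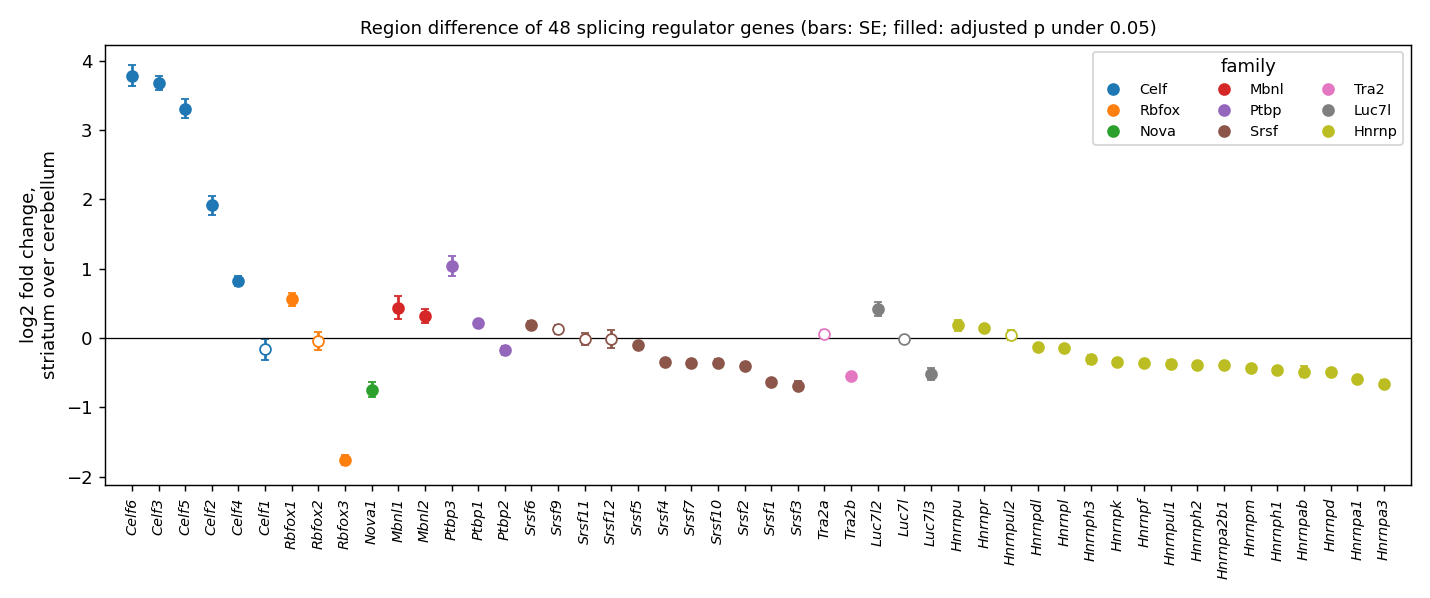
Log2 fold change of striatum over cerebellum (y axis) for each of the 48 genes (x axis), coloured by family, with bars for the standard error of the edgeR fit over 44 libraries and filled points for an adjusted p under 0.05. Celf genes sit highest, up to 3.79, Rbfox3 sits lowest at -1.76, and most Srsf and Hnrnp genes lie a little under 0.

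Celf proteins bind GU-rich RNA and act on splicing, translation and decay of messenger RNA. Celf3, which encodes a nearly brain-restricted member, had a lowest, median and highest value of 165, 219 and 256 CPM in the 22 striatal libraries, against 10.2, 15.5 and 34.5 CPM in the 22 cerebellar libraries. The lowest striatal library lay far above the highest cerebellar one. The difference was 3.68 ± 0.10 on the log2 scale (SE), with an edgeR adjusted p of 1.8e-30, the lowest of all members. Celf6, whose loss in mice alters social vocal behaviour, had 22.7, 30.2 and 39.45 CPM in striatum, against 0.898, 1.71 and 7.19 CPM in cerebellum. Its groups did not overlap either, and its log2 fold change of 3.79 ± 0.16 (SE, edgeR adjusted p = 4.9e-24) was the largest of the members. The cerebellar maximum came from PCB52 female 16.

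Celf5 had 268, 452 and 561 CPM in striatum, against 18.2, 42.6 and 77.9 CPM in cerebellum, a log2 fold change of 3.31 ± 0.14 (SE, edgeR adjusted p = 1.88e-23). Celf2, which is made in many tissues, had 104, 149 and 189 CPM in striatum, against 14.9, 37.9 and 66.3 CPM in cerebellum, a log2 fold change of 1.91 ± 0.14 (SE, edgeR adjusted p = 7.71e-16). Celf4, whose loss in mice causes seizures, had 453, 581 and 692 CPM in striatum, against 201, 327 and 422.5 CPM in cerebellum, a log2 fold change of 0.82 ± 0.07 (SE, edgeR adjusted p = 1.39e-13). None of these genes overlapped between the regions, and in each of the 21 rats with both libraries all 5 were higher in striatum. Celf1, the founding member, did not follow them. It had 30.7, 85.2 and 108 CPM in striatum, against 39.95, 90.8 and 158 CPM in cerebellum, with a log2 fold change of -0.16 ± 0.15 (SE, edgeR adjusted p = 0.308), and was lower in striatum in 14 of 21 rats.

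**Figure D2:**
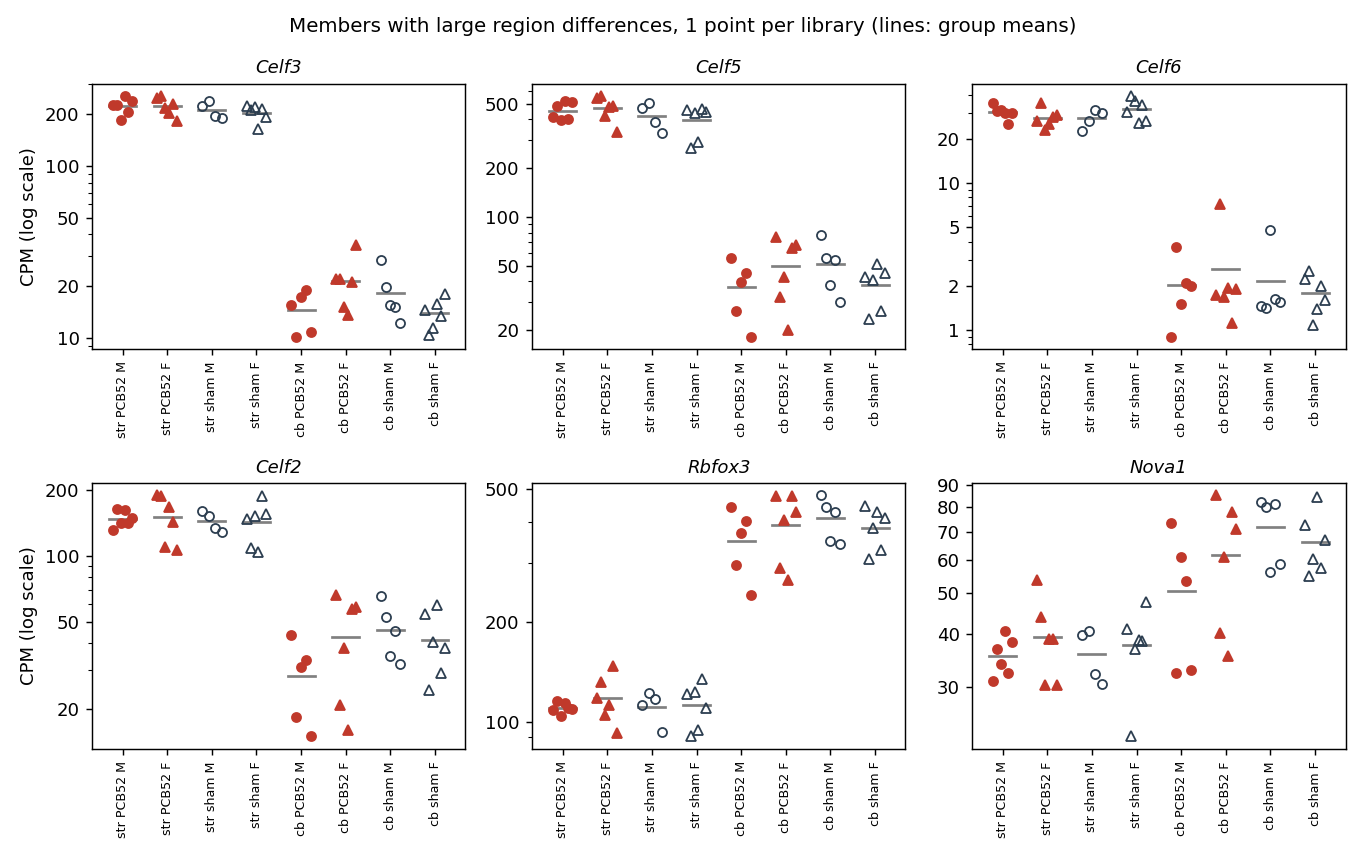
CPM of 6 members (y axes, log scale) in each library, grouped by region (str, striatum; cb, cerebellum), exposure and sex (M, F), with filled red marks for PCB52, open marks for sham and grey lines for group means. Celf3, Celf5, Celf6 and Celf2 separate the regions with striatum high, Rbfox3 separates them with cerebellum high, and Nova1 overlaps between them.

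Rbfox proteins bind GCAUG and are among the best studied regulators of neuronal exons. Rbfox3 encodes NeuN, the nuclear antigen used to mark neurons, which is strong in cerebellar granule cells and weak or missing in Purkinje cells. It had 90.6, 112 and 147 CPM in striatum, against 240, 402 and 479 CPM in cerebellum. The groups did not overlap, all 21 rats were lower in striatum, and the log2 fold change was -1.76 ± 0.08 (SE, edgeR adjusted p = 2.27e-23). Rbfox1 moved the other way, with 275, 399.5 and 564 CPM in striatum, against 159, 292 and 369 CPM in cerebellum. Its groups overlapped, 19 of 21 rats were higher in striatum, and the log2 fold change was 0.56 ± 0.09 (SE, edgeR adjusted p = 6.08e-07). Rbfox2 had 46.1, 81.4 and 105 CPM in striatum, against 35.3, 83.3 and 131 CPM in cerebellum, with a log2 fold change of -0.04 ± 0.13 (SE, edgeR adjusted p = 0.791). Within the family, one gene was thus higher, one lower and one not called.

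Nova1 encodes a neuronal protein that binds YCAY repeats and is the target of antibodies in a form of ataxia with opsoclonus. It had 22.9, 38.5 and 53.9 CPM in striatum, against 32.4, 60.9 and 85.25 CPM in cerebellum, overlapped between the regions, and was lower in striatum in 17 of 21 rats. The log2 fold change was -0.74 ± 0.10 (SE, edgeR adjusted p = 2.16e-08).

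Mbnl proteins bind YGCY motifs and are trapped by CUG repeats in myotonic dystrophy, in which Mbnl2 is the main one affected in brain. Mbnl2 had 147, 218 and 328 CPM in striatum, against 88.3, 182 and 256 CPM in cerebellum, a log2 fold change of 0.32 ± 0.10 (SE, edgeR adjusted p = 0.00455). Mbnl1 had 9.25, 22.1 and 30.0 CPM in striatum, against 4.31, 15.6 and 29.9 CPM in cerebellum, a log2 fold change of 0.44 ± 0.17 (SE, edgeR adjusted p = 0.0174). Both genes overlapped widely between the regions. Neither call held among sham rats alone, where the log2 fold change of Mbnl2 was 0.18 (edgeR adjusted p = 0.281) and that of Mbnl1 was 0.17 (edgeR adjusted p = 0.54). Without the 4 cerebellar libraries of highest ribosomal mean, all of them PCB52, Mbnl1 was also not called (log2 fold change 0.25, edgeR adjusted p = 0.092).

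Ptbp1 represses neuronal exons in glia and other non-neuronal cells, Ptbp2 takes its place in neurons, and Ptbp3 is known best from blood cells. Ptbp3 had 6.17, 12.6 and 17.3 CPM in striatum, against 2.905, 5.54 and 10.54 CPM in cerebellum. It was higher in striatum in 21 of 21 rats, although the groups overlapped, with a log2 fold change of 1.04 ± 0.14 (SE, edgeR adjusted p = 2.56e-08). Ptbp1 had 59.5, 72.75 and 103 CPM in striatum, against 56.5, 63.4 and 70.7 CPM in cerebellum, and was higher in striatum in 20 of 21 rats, by 0.21 ± 0.04 on the log2 scale (SE, edgeR adjusted p = 1.28e-05). Ptbp2 was lower in striatum, by a log2 fold change of -0.18 ± 0.07 (SE, edgeR adjusted p = 0.0191), with 60.5 ± 7.44 CPM in striatum and 68.95 ± 12.54 CPM in cerebellum (SD, n = 22 each). It was not called with DESeq2 or with its size factors in edgeR. Markers of non-neuronal cells also differed between the regions. Of 8 microglial markers 8 were higher in striatum, of 8 endothelial markers 8, of 10 oligodendrocyte markers 10 and of 8 astrocyte markers 4, with 1 lower. Their part in the difference of Ptbp1 and Ptbp3 was not tested.

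The SR proteins were mostly lower in striatum. Srsf3, the smallest SR protein, had 138.5, 164 and 193 CPM in striatum, against a lowest and a median value of 199 and 250.5 CPM in cerebellum, and averaged 162 ± 15.8 CPM in striatum and 260.5 ± 42.4 CPM in cerebellum (SD, n = 22 each). No striatal library reached the lowest cerebellar one, and the log2 fold change was -0.69 ± 0.06 (SE, edgeR adjusted p = 1.1e-13). Srsf1, the first SR protein described, had 171, 214.5 and 254 CPM in striatum, against 266, 333.7 and 432 CPM in cerebellum, again without overlap, with a log2 fold change of -0.64 ± 0.05 (SE, edgeR adjusted p = 5.17e-14). Srsf2, a marker protein of nuclear speckles, was lower by -0.41 ± 0.03 on the log2 scale and did not overlap. Srsf10, Srsf7 and Srsf4 had log2 fold changes of -0.37, -0.36 and -0.35, and Srsf5 had one of -0.10. The call of Srsf5 was the one most often lost, in 13 of the 44 fits that left out 1 library, with DESeq2 or its size factors, among sham rats alone, without the libraries with markers of another tissue and when the libraries of the same rat were matched by a replicate block, under which Srsf9 was called. Srsf6 was called higher, with a log2 fold change of 0.18 ± 0.06 (SE, edgeR adjusted p = 0.0037) and 16 of 21 rats higher in striatum, although it was not called among sham rats alone. Srsf9, Srsf11 and Srsf12 were not called, with log2 fold changes of 0.12, -0.01 and -0.02. Srsf9 lay near the threshold (edgeR adjusted p = 0.0621) and was called higher with DESeq2, with its size factors in edgeR, with limma, without the 4 libraries of highest ribosomal mean and with the ribosomal mean as a covariate. Among sham rats alone it was the 1 Srsf gene called higher, with a log2 fold change of 0.20 (edgeR adjusted p = 0.0459).

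Tra2b, an SR-like protein that activates exon 7 of SMN2 in human cells, was lower in striatum in 21 of 21 rats. It had 70.95, 78.4 and 90.3 CPM in striatum, against 99.7, 113 and 143 CPM in cerebellum, with no overlap and a log2 fold change of -0.55 ± 0.04 (SE, edgeR adjusted p = 1.31e-15). Its paralog Tra2a averaged 77.5 ± 9.17 CPM in striatum and 73.9 ± 7.03 CPM in cerebellum (SD, n = 22 each). Its log2 fold change of 0.06 was not called (edgeR adjusted p = 0.247).

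Luc7l proteins join the U1 particle and affect the choice of the 5′ splice site. Luc7l2 had 54.1, 107 and 142.5 CPM in striatum, against 50.5, 79.2 and 129 CPM in cerebellum, a log2 fold change of 0.42 ± 0.10 (SE, edgeR adjusted p = 2.64e-04) that was not called among sham rats alone (log2 fold change 0.30, edgeR adjusted p = 0.0713). Luc7l3 had 126, 186 and 232 CPM in striatum, against 174, 273 and 403 CPM in cerebellum, a log2 fold change of -0.52 ± 0.09 (SE, edgeR adjusted p = 2.2e-06). Luc7l itself averaged 39.7 ± 4.28 CPM in striatum and 40.0 ± 3.65 CPM in cerebellum (SD, n = 22 each), with a log2 fold difference of -0.01 ± 0.04 (edgeR adjusted p = 0.809). Among sham rats alone Luc7l was called lower too, with a log2 fold change of -0.16 ± 0.06 (SE, edgeR adjusted p = 0.0136), as was Luc7l3.

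The hnRNPs coat new transcripts and mostly silence exons. Hnrnpa1, the classic opponent of Srsf1, had 202, 225 and 260 CPM in striatum, against 291, 344.5 and 395 CPM in cerebellum, without overlap. Its log2 fold change was -0.59 ± 0.04 (SE, edgeR adjusted p = 1.73e-18). Hnrnpa3, a close relative, had 285, 344 and 441 CPM in striatum, against 400.5, 548 and 696 CPM in cerebellum, with a log2 fold change of -0.67 ± 0.06 (SE, edgeR adjusted p = 1.19e-13). It was lower in striatum in 21 of 21 rats although the groups overlapped. Hnrnpd, also known as AUF1, which binds AU-rich elements, had 72.6, 82.0 and 101 CPM in striatum, against 101, 120 and 138 CPM in cerebellum, with a log2 fold change of -0.49 ± 0.04. Hnrnpab, Hnrnph1 and Hnrnpm followed with -0.48 ± 0.08, -0.47 ± 0.06 and -0.44 ± 0.05 (SE, edgeR adjusted p = 3.3e-07, 7.23e-10 and 3.08e-11), and Hnrnpf, which binds runs of G, was the other Hnrnp gene with no overlap (-0.36).

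Among the remaining hnRNPs the log2 fold changes were -0.39 for Hnrnpa2b1 and Hnrnph2, -0.37 for Hnrnpul1, -0.35 for Hnrnpk, -0.31 for Hnrnph3, -0.14 for Hnrnpl and -0.13 for Hnrnpdl, all called. Hnrnpul2 was not called (0.04). The 2 that were higher in striatum were Hnrnpr, by 0.14 ± 0.05 (SE, edgeR adjusted p = 0.00514), and Hnrnpu, a scaffold protein of the nucleus. Hnrnpu had 328, 453 and 573 CPM in striatum, against 228, 417 and 554 CPM in cerebellum, a log2 fold change of 0.19 ± 0.08 (SE, edgeR adjusted p = 0.0362). The call of Hnrnpu was lost among sham rats alone (log2 fold change 0.04, edgeR adjusted p = 0.77), without the 4 libraries of highest ribosomal mean (0.08, edgeR adjusted p = 0.264), without the 5 libraries of mixed sex (0.18, edgeR adjusted p = 0.0756) and with scaling by library totals alone (0.17, edgeR adjusted p = 0.0827). Leaving out any 1 of 7 libraries, namely cerebellum PCB52 female 16, PCB52 female 20 or PCB52 male 23 or striatum sham male 1, sham female 8, sham male 11 or PCB52 male 19, also ended it (edgeR adjusted p between 0.0503 and 0.0656). Hnrnpr, Hnrnpl and Hnrnpdl were not called among sham rats alone, and Hnrnpdl was not called with DESeq2's size factors in edgeR.

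Ribosomal protein genes, whose level set some cerebellar libraries apart, were read in the same comparison. Of 78 ribosomal protein genes tested, 4 were higher and 42 lower in striatum, with a median log2 fold change of -0.34. Among sham rats alone 11 were higher and 6 lower, with a median of 0.01, while of the members 9 were higher and 24 lower in those rats, where edgeR called 69.8% of all genes. The median was -0.26 over the members and -0.03 over all genes. Hnrnp genes then had 0 higher and 12 lower, Srsf genes 1 higher and 6 lower, and Celf genes 5 higher and 0 lower.

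Other genes of the splicing machinery were read in the same comparison. Of 12 genes of the U1, U2 and Sm proteins, which form the particles that find the splice sites, 0 were higher and 9 lower in striatum, with a median log2 fold change of -0.48. Among sham rats alone 1 was higher and 6 were lower, with a median of -0.36. The mean of this list was highest in the 4 cerebellar libraries of highest ribosomal mean, all of them PCB52, at 5.50 to 5.83 log2 CPM. It was 4.65 to 5.21 log2 CPM in the other 18 cerebellar libraries. Snrpb, a shared Sm protein, averaged 48.7 ± 5.73 CPM in striatum and 84.7 ± 16.3 CPM in cerebellum (SD, n = 22 each), with a log2 fold difference of -0.79 ± 0.07. Snrpc, a U1 protein, averaged 22.05 ± 4.69 CPM in striatum and 40.0 ± 12.7 CPM in cerebellum, a log2 fold change of -0.86 ± 0.11. Snrpn, the neuronal relative of Snrpb, had a log2 fold change of -2.10 ± 0.17 at under 4 CPM in either region, but it shares its transcript with Snurf, and how reads were divided between the 2 genes is not given in the sources used here.

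Of 12 genes of branch point and 3′ splice site recognition 1 was higher and 8 were lower in striatum (median -0.22), among them Sf3b4 (-0.64 ± 0.04), Puf60 (-0.65 ± 0.06) and U2af1 (-0.56 ± 0.08). Of 13 genes of the tri-snRNP and its helicases 0 were higher and 11 lower (median -0.44), among them Snrnp40 (-1.09 ± 0.08), Sart1 (-0.50 ± 0.04) and Prpf19 (-0.73 ± 0.05). Of 9 kinases of SR proteins, which switch these proteins on and off by phosphorylation, 3 were higher and 2 lower (median 0.02), with Clk2 at -0.39 ± 0.05, Clk3 at 0.24 ± 0.04 and Srpk1 at 0.18 ± 0.05. Of 37 further RNA-binding regulators 7 were higher and 15 lower (median -0.05). In that list the cold-inducible gene Rbm3 averaged 80.1 ± 6.77 CPM in striatum and 187 ± 29.5 CPM in cerebellum (SD, n = 22 each), with a log2 fold difference of -1.22 ± 0.05, while Pcbp2 and Nono had -0.67 ± 0.03 and -0.61 ± 0.03 (SE; edgeR adjusted p for the genes named in these lists at most 0.00267). Among sham rats alone the branch point list had 0 higher and 8 lower, the tri-snRNP list 0 and 11, the kinases 1 and 4, and the further regulators 4 and 15.

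Promoter windows of 250 bases before to 50 bases after the start were read from RefSeq (assembly GRCr8) for 41 of the 48 members, which gave 46 windows. Their median GC content was 64.3%, against 60.7% in 10599 windows of all genes tested in the region comparison and 51.7% in all 33469 windows, and they held a median of 28 CG pairs, against 20 and 7. The letters TGACG, the core of the cAMP response element, occurred on either strand in 23 of 46 member windows, against 31.0% of the windows of tested genes and 21.2% of all windows. CCAAT occurred in 58.7% of member windows, against 37.0% and 37.5%, and the GC box GGGCGG in 73.9%, against 60.9% and 33.1%. The full element TGACGTCA, which holds TGACG on both strands so that the 2 matches overlap, occurred in 1 member window, that of Celf6 (2.17%, against 3.16% and 1.83%). The windows of the 2 Celf genes with the largest excess in striatum and of the SR and hnRNP genes with the largest deficit are given 5′ to 3′ on the plus strand, with TGACG or its reverse complement in capitals. They are Celf6 at chr8:68870843-68871142, Celf3 at chr2:184804841-184805140, Srsf3 at chr20:7093335-7093634 and Hnrnpa3 at chr3:80985684-80985983.
Celf6: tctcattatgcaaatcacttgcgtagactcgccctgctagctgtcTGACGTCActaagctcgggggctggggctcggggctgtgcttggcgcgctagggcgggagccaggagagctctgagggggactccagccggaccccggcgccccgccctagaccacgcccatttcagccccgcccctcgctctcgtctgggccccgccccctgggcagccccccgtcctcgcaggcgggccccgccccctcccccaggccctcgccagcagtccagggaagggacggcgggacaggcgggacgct
Celf3: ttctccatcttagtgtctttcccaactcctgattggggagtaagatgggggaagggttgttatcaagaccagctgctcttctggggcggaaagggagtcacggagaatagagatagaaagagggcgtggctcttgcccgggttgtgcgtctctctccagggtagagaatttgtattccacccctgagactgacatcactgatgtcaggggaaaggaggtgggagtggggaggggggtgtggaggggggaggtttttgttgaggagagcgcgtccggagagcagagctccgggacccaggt
Srsf3: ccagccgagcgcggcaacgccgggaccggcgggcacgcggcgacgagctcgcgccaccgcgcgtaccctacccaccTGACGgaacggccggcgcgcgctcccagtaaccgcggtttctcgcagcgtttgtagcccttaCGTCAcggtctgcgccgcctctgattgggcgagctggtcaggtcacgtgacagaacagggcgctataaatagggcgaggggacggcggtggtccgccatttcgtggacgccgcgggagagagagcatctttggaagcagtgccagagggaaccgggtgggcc
Hnrnpa3: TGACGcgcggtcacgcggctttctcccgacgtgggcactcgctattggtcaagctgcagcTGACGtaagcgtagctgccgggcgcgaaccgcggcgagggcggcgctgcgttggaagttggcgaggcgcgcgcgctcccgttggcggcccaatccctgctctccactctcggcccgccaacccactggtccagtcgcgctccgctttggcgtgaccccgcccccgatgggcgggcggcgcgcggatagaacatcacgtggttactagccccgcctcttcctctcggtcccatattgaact
The window of Celf3, without TGACG, held 9 CG pairs and 56.3% GC, while those of Celf6, Srsf3 and Hnrnpa3 held 26, 42 and 42 CG pairs and 72.3%, 68.7% and 68.3% GC. The 2 Celf genes with the largest excess in striatum thus had unlike windows. A match is a description of the letters and not a bound site.

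The median member varied less within a group than the median gene. The median within-group SD on the log2 scale was 0.16 over the 48 members in striatum and 0.23 in cerebellum, against 0.25 and 0.32 over the 12108 genes with a mean of at least 1 CPM. These genes were not matched to the members by level, and most members lay far above 1 CPM. The part of level in the lower SD was not tested. The range was 0.07 to 0.51 in striatum and 0.07 to 0.71 in cerebellum, where Mbnl1 varied most. Of the 48 members 9 in striatum and 16 in cerebellum varied more than the median gene.

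In cerebellum the variation among libraries lay along the level of ribosomal protein transcripts. The 4 libraries of highest ribosomal mean were PCB52 male 23, PCB52 female 20, PCB52 male 15 and PCB52 female 16, at 9.09, 8.72, 8.58 and 8.52. In the same order they had the 4 lowest means over the 48 members, 6.38, 6.42, 6.45 and 6.59 log2 CPM, while the other 18 cerebellar libraries lay at 6.61 to 7.04. They also had the 4 lowest values of Mbnl1, at 4.31, 4.84, 6.78 and 7.80 CPM, against 10.8 to 29.9 CPM in the others. Hnrnpab, which binds RNA and DNA, went the other way and was highest in the same 4. It had 609, 555, 548 and 594 CPM there, against 326 to 518 CPM in the others. Srsf3 was likewise highest in the same 4, with at least 319.6 CPM in each, against at most 296.5 CPM in the others. At the low end of the ribosomal range, sham male 1 and PCB52 female 14, at 6.98 and 6.96, had the 2 highest member means of 7.04 and 6.99. In striatum, sham female 12 had the highest ribosomal mean of 8.34, the lowest member mean of 6.598 and the lowest Mbnl1 of 9.25 CPM. It was also the library with olfactory bulb markers, at 5.15 log2 CPM.

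**Figure D3:**
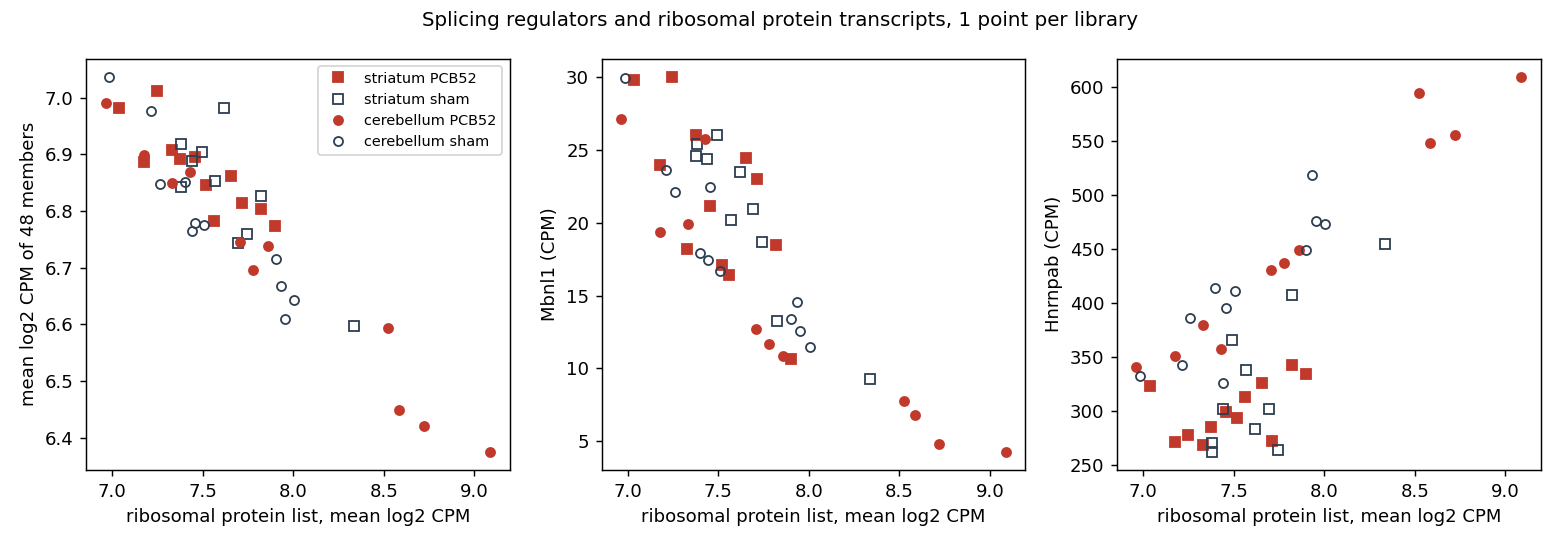
Mean log2 CPM of the 48 members and CPM of Mbnl1 and Hnrnpab (y axes) against the mean log2 CPM of 82 ribosomal protein genes (x axes), 1 point per library, with squares for striatum, circles for cerebellum, filled red marks for PCB52 and open marks for sham. The 4 cerebellar PCB52 libraries at the right, with ribosomal means of 8.52 to 9.09, are lowest in the member mean and Mbnl1 and highest in Hnrnpab.

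PCB52 was compared with sham within each region and sex, the contrast the study was built for. In striatum edgeR called 0 of 48 members and 0.0% of 12142 genes in males, in females and in the mean of both sexes. DESeq2 called 0 members in each, among 1 gene in males, 23 in females and 0 in the mean of both sexes, and limma called 0 members and 0 genes in each. At an unadjusted p under 0.05 the count was 0 members in males, where 0.898% of genes passed, 5 in females, where 13.4% of genes passed, and 4 in the mean of both sexes, where 5.8% passed.

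In striatum of females the 5 members were 4 SR-related or U1-related genes with higher and 1 with lower values. Tra2b had 70.95, 73.9 and 81.2 CPM in PCB52 females, against 79.45, 84.7 and 90.3 CPM in sham females (lowest, median and highest of 6 each). PCB52 female 18 alone reached into the sham range, and the log2 fold change was -0.19 ± 0.06 (SE, unadjusted p = 0.00839, edgeR adjusted p = 0.303). Srsf6 had 135, 149.5 and 159 CPM in PCB52 females, against 118, 133 and 139 CPM in sham females, with only PCB52 female 14 within the sham range, and a log2 fold change of 0.18 ± 0.07 (edgeR adjusted p = 0.304). Luc7l had 36.2, 41.6 and 46.35 CPM in PCB52 females, against 31.5, 35.7 and 39.7 CPM in sham females, with a log2 fold change of 0.23 ± 0.08 (edgeR adjusted p = 0.305).

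Srsf4 had 76.6, 87.02 and 93.4 CPM in PCB52 females, against 69.6, 71.8 and 86.8 CPM in sham females, with a log2 fold change of 0.20 ± 0.08 (edgeR adjusted p = 0.33). Srsf2 had 261.5, 274 and 286 CPM in PCB52 females, against 222, 249 and 261 CPM in sham females, and a log2 fold change of 0.14 ± 0.06 (edgeR adjusted p = 0.348). The lowest PCB52 value of Srsf2 lay just above the highest sham value. Over all members 34 of 48 log2 fold changes were positive in females, with a median of 0.07, and 10 of 11 Srsf genes were positive. The median was -0.01 without the libraries that held markers of another tissue, among them 4 of striatum of females, and -0.01 with the ribosomal mean as a covariate. At an unadjusted p under 0.05 in edgeR there were 3 members without those libraries and 12 with the covariate. 0 members were called in either fit, and the share of all genes passing was not counted there. All 78 ribosomal protein genes tested were lower in PCB52 females by sign, with a median of -0.32.

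In striatum of males the members showed no common direction, with 27 of 48 log2 fold changes negative and a median of -0.01. Hnrnpd had the lowest p, 0.143, with 72.6, 79.1 and 93.2 CPM in 6 PCB52 males, against 88.1, 81.0, 101 and 81.7 CPM in the 4 sham males, and a log2 fold change of -0.13 ± 0.08. Its groups overlapped. In the mean of both sexes the 4 members at an unadjusted p under 0.05 were Srsf6 (0.13 ± 0.05), Luc7l (0.16 ± 0.06), Tra2b (-0.12 ± 0.05) and Hnrnpk (-0.11 ± 0.05), a binder of C-rich RNA, each with an edgeR adjusted p of 0.773. The female effect minus the male effect reached an unadjusted p under 0.05 in 0 members, against 3.88% of genes, and edgeR called 0 members and 0.0% of genes. Celf6 had the lowest p there (-0.35 ± 0.18, unadjusted p = 0.0662).

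**Figure D4:**
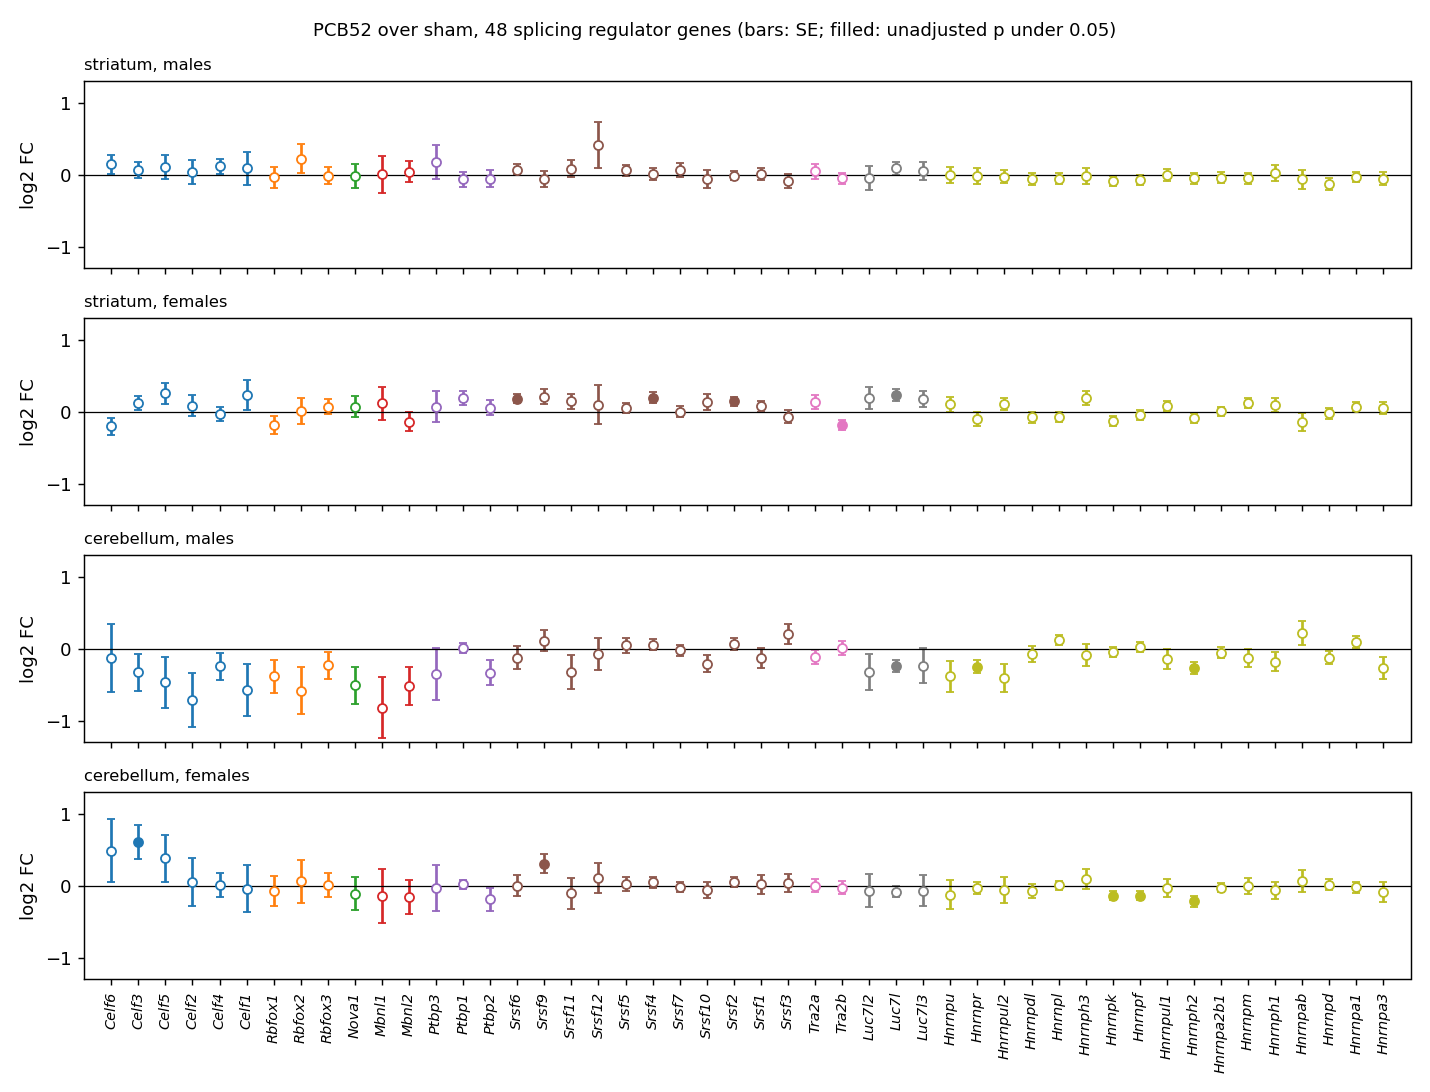
Log2 fold change of PCB52 over sham (y axes) for the 48 genes (x axis, in the order and colours of the region plot) in males and females of each region, with bars for the standard error and filled points for an unadjusted p under 0.05. No gene passed an adjusted p of 0.05, and in cerebellum of males 37 of 48 points lie under 0.

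In cerebellum edgeR called 0 of 48 members and 0.0% of 11690 genes in males, in females and in the mean of both sexes, and limma called 0 members and 0 genes in each. DESeq2 called 0 members among 1 gene in males, 0 among 9 genes in females and 1, Hnrnph2, among 21 genes in the mean of both sexes. At an unadjusted p under 0.05 the count was 3 members in males, where 14.3% of genes passed, 5 in females, where 3.16% passed, and 5 in the mean of both sexes, where 14.8% passed.

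Hnrnph2, an X-linked gene whose protein binds runs of G and whose human form is mutated in a neurodevelopmental disorder, was the member with the lowest p. It had 110, 91.7, 91.1, 98.8 and 82.2 CPM in PCB52 males, against 107, 110, 120, 116 and 110 CPM in sham males. In females it had 89.5, 103.8 and 108 CPM in the 6 PCB52 libraries, against 111, 115 and 123 CPM in the 6 sham libraries. PCB52 and sham females did not overlap, and among males only PCB52 male 13 lay within the sham range. The log2 fold change was -0.26 ± 0.08 in males, -0.22 ± 0.08 in females and -0.24 ± 0.06 in the mean of both sexes (SE, edgeR adjusted p = 0.313, 1.0 and 0.326). For the mean of both sexes the DESeq2 adjusted p was 0.0095 at a log2 fold change of -0.24. In edgeR, which did not call Hnrnph2 with all libraries, the log2 fold change was -0.19 with the ribosomal mean as a covariate. Without the 4 libraries of highest ribosomal mean it was -0.17 (edgeR adjusted p = 0.999). DESeq2 was not run with either of these changes. In striatum Hnrnph2 averaged 78.4 ± 6.0 CPM in PCB52 males and 80.8 ± 2.09 CPM in sham males (SD, n = 6 and 4), and 79.8 ± 6.19 CPM in PCB52 females and 85.0 ± 5.5 CPM in sham females (SD, n = 6 each).

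The other members at an unadjusted p under 0.05 in cerebellum of males were Hnrnpr and Luc7l. Hnrnpr had 59.8, 53.3, 54.3, 55.8 and 54.2 CPM in PCB52 males, against 69.1, 66.99, 63.4, 63.3 and 64.9 CPM in sham males, without overlap, and a log2 fold change of -0.25 ± 0.09 (edgeR adjusted p = 0.313). Luc7l had 38.1, 36.2, 36.4, 37.2 and 35.1 CPM in PCB52 males, against 45.1, 42.5, 39.5, 43.1 and 44.0 CPM in sham males, again without overlap, and a log2 fold change of -0.24 ± 0.09 (edgeR adjusted p = 0.313). In females Hnrnpr averaged 56.7 ± 7.05 CPM with PCB52 and 57.4 ± 3.53 CPM with sham exposure (SD, n = 6 each), and Luc7l averaged 39.25 ± 3.27 and 41.1 ± 4.37 CPM in the same groups.

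In cerebellum of females Celf3 had 13.7, 21.6 and 34.5 CPM in PCB52 libraries, against 10.4, 13.98 and 17.97 CPM in sham libraries, with a log2 fold change of 0.60 ± 0.24 (SE, unadjusted p = 0.0186, edgeR adjusted p = 1.0). The 2 ranges overlapped, and the highest value, of PCB52 female 24, stood in the library with the highest mean of cortical markers in cerebellum (5.11 log2 CPM, against 3.68 to 4.55 in the others). The library next in that mean, PCB52 female 18, had 15.2 CPM of Celf3. In cerebellum the mean of striatal projection neuron markers was highest in PCB52 females 16 and 24 (3.53 and 3.51 log2 CPM), which had 21.9 and 34.5 CPM of Celf3. PCB52 female 14, at 2.75 log2 CPM in that mean, had 22.2 CPM of Celf3. The part of cortical or striatal markers in these values was not tested. Srsf9 had 19.85, 25.1 and 27.3 CPM in PCB52 females, against 15.2, 20.9 and 22.7 CPM in sham females, a log2 fold change of 0.31 ± 0.13. Hnrnpf and Hnrnpk had log2 fold changes of -0.14 ± 0.06 each. For the female effect minus the male effect edgeR called 0 members and 0.0% of genes, and 1 member passed an unadjusted p of 0.05, where 2.17% of genes did. It was Celf3, at 0.93 ± 0.35 on the log2 scale (SE, edgeR adjusted p = 0.774). Without the cerebellar libraries of both sexes Celf3 was at 1.17 (edgeR adjusted p = 0.71). With all libraries DESeq2 called 0 members among 4 genes for this difference and limma 0 members and 0 genes.

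**Figure D5:**
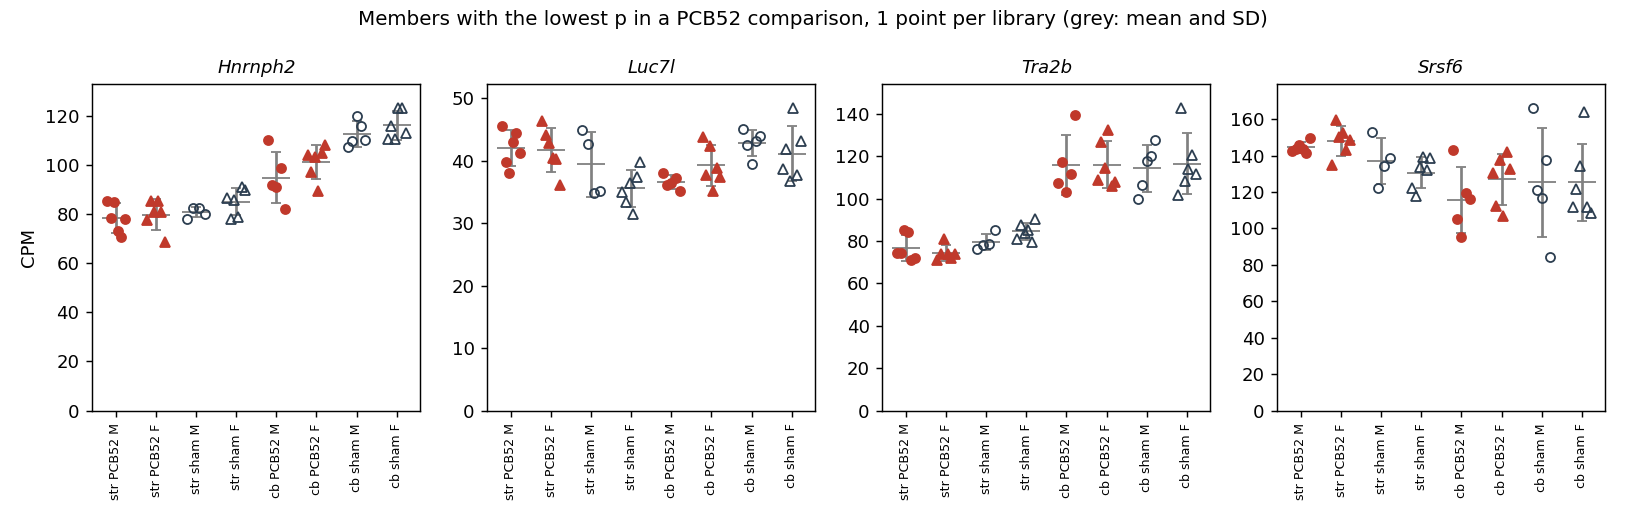
CPM of 4 members (y axes, from 0) in each library by region (str, striatum; cb, cerebellum), exposure and sex, with filled red marks for PCB52, open marks for sham and grey bars for mean and SD. Hnrnph2 in cerebellum lies lower in PCB52 rats, at 82.2 to 110 CPM, than in sham rats, at 107 to 123 CPM, and Tra2b in striatum of females lies at 70.95 to 81.2 CPM with PCB52 and 79.45 to 90.3 CPM with sham exposure.

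Members leaned downward together in cerebellum of PCB52 males without passing the test. There 37 of 48 log2 fold changes were negative, with a median of -0.16, against 0.01 over all genes tested. All 6 Celf, 3 Rbfox, 3 Luc7l and 2 Mbnl genes and Nova1 were negative, with ranges of -0.71 to -0.13 for Celf, -0.58 to -0.23 for Rbfox and -0.82 to -0.52 for Mbnl. The Srsf genes were split, with 5 positive and 6 negative. Mbnl1, at the low end of -0.82 ± 0.42, had 19.9, 6.78, 11.7, 10.8 and 4.31 CPM in PCB52 males, against 29.9, 22.1, 13.4, 17.9 and 11.45 CPM in sham males. The 2 groups overlapped widely (edgeR adjusted p = 0.313).

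The ribosomal protein genes leaned upward in the same rats. All 78 tested were positive in cerebellum of PCB52 males, with a median of 0.75, 39 of them at an unadjusted p under 0.05, and edgeR called 0. The ribosomal mean was 7.33 to 9.09 log2 CPM in PCB52 males and 6.98 to 8.00 in sham males. Without the cerebellar libraries of both sexes the members' median in males was -0.25, with 2 members at an unadjusted p under 0.05, and Hnrnph2, Hnrnpr and Luc7l had log2 fold changes of -0.28, -0.25 and -0.23 (edgeR adjusted p = 0.395 each). With the ribosomal mean as a covariate the members' median in males was -0.02, and without the 4 libraries of highest ribosomal mean it was -0.05. In the mean of both sexes, 36 of 48 members were negative with a median of -0.08, which became 0.005 with the covariate and 0.008 without the 4 libraries. In females the median was -0.03 and 28 of 48 were negative. With the covariate 5 members in males, 7 in females and 11 over both sexes passed an unadjusted p of 0.05 in edgeR, against 3, 5 and 5 without it. Without the 4 libraries 3, 5 and 2 members passed. In these fits edgeR called 0 members, and the share of all genes passing was not counted with the covariate or without the 4 libraries.

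The PCB52 effect in striatum was also set against that in cerebellum. edgeR called 0 of 48 members and 0.0% of 12446 genes, DESeq2 called 0 members among 3 genes and limma 0 members and 0 genes, and 3 members passed an unadjusted p of 0.05, where 18.3% of genes did. Luc7l had the lowest p, 5.5e-04, with a difference of 0.305 ± 0.08 between its log2 fold changes, which were 0.16 ± 0.06 in striatum and -0.16 ± 0.06 in cerebellum (edgeR adjusted p = 0.268). With the same rat's libraries matched by a replicate block the difference was 0.32 (edgeR adjusted p = 0.311). Hnrnph2 (0.16 ± 0.07) and Hnrnpl (-0.14 ± 0.07) had the same adjusted p of 0.268. All 78 ribosomal protein genes had a negative difference, with a median of -0.69, and with their mean as a covariate the difference of Luc7l was 0.24 (edgeR adjusted p = 1.0).

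Between sham females and sham males edgeR called 0 members in either region, against 4 genes (0.0329%) in striatum and 0.0% of genes in cerebellum. Limma and DESeq2 also called 0 members, among 5 and 4 genes in striatum and 0 genes each in cerebellum. At an unadjusted p under 0.05 there were 0 members in striatum, where 2.55% of genes passed, and 1 in cerebellum, where 1.05% passed. That member was Hnrnpr, which had 52.3, 57.6 and 61.6 CPM in the 6 sham females, against 63.3 to 69.1 CPM in the 5 libraries labelled sham males, without overlap. Its log2 fold change of females over males was -0.19 ± 0.09 (SE, unadjusted p = 0.0416, edgeR adjusted p = 1.0). The cerebellar sham groups include 4 of the mixed-sex libraries, and without those 4 the members at an unadjusted p under 0.05 numbered 0 (Hnrnpr at -0.17, edgeR adjusted p = 0.993). In striatum Srsf12 had the lowest p (0.64 ± 0.31, unadjusted p = 0.052, edgeR adjusted p = 1.0). Without sham male 3, the mixed-sex library of striatum, 1 member passed an unadjusted p of 0.05 there, and edgeR called 0 members among 5 genes.

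Whether copies of the members took up reads was not measured. The reference table of GRCr8 lists 51 pseudogenes named after Hnrnpa1, 10 after Srsf3, 7 each after Srsf7 and Hnrnpk and 6 each after Ptbp1 and Tra2b, and how reads that match several copies were counted is not given in the sources used here. The use of strand is likewise not given, so reads of a gene and of an overlapping gene could not be told apart.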

How the data were processed

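The authors deposited 1 table of raw counts per region, with whole-number counts per Entrez gene ID. Per the submitters' processing notes FastQC and HISAT2 were used with the rat build rn6. For the read counter, the annotation and strand the entry is: not given in the sources used here. Per the labels' protocols, either capture of poly(A) RNA or depletion of ribosomal RNA preceded sequencing, without saying which. Of the IDs, 99.4% matched a symbol. Counts were available for 44 libraries, and 3 labelled samples were not analysed here. Libraries of a group were not duplicates (lowest chi-square per degree of freedom between 2 of them 3.49).

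Counts were tested with edgeR 4.0.16 (R 4.3.3) by the quasi-likelihood F-test, two-sided, with TMM scaling, its filter on low counts and Benjamini-Hochberg adjustment over all genes at 0.05. Each region had 1 fit of 4 group means, and the region comparisons 1 fit of 8. The procedure was tested on simulated counts of striatum only, with planted changes larger than most PCB52 differences given here. Smaller changes were not simulated, so the simulation cannot say whether they would be called. Levels are CPM with TMM scaling over all libraries, and list means are mean log2 CPM. Alternatives were DESeq2 1.42.0, limma 3.58.1, other scaling, no filter, sham rats only, fewer libraries, a ribosomal covariate and the replicate block. Mixed-sex libraries had over 3 CPM of both Xist and Eif2s3y. The ribosomal covariate and the limit of 8.5 were chosen after seeing the data.

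The members and all gene lists were chosen with earlier results of these data known. Members were named up to 12 per direction by size of the called change, further called members with their fold only, and where fewer than 5 were called by lowest p. The replicate block used the animal number shared by the titles of both regions. Over 21 animals the correlation of deviations between regions ran from -0.41 to 0.52 (median 0.09), and 10 were over 0.1.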

Additional observations from a re-analysis of the deposited data

Results flagged for a closer look

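Of 112 groups of libraries examined over 14 members, 5 held 1 library far from the others, which is no more than the about 1 in 20 that chance gives. Celf6 had 7.19 CPM in cerebellum PCB52 female 16, against 1.11 to 1.94 CPM in the other 5 PCB52 females. That library also had the highest mean of striatal projection neuron markers in cerebellum (3.53 log2 CPM). PCB52 female 24 had nearly the same mean (3.51 log2 CPM) and 1.91 CPM of Celf6. Celf6 had 4.78 CPM in cerebellum sham male 3, against 1.41 to 1.62 CPM in the other 4 libraries labelled sham males, and there the mean of olfactory bulb markers was the highest in cerebellum (3.46 log2 CPM). PCB52 female 16 came next in that mean (3.415 log2 CPM) and was highest in thalamic, septal or hypothalamic markers (2.998 log2 CPM). Sham female 10 followed in olfactory bulb markers (3.249 log2 CPM), with 2.229 CPM of Celf6. The part of these markers in the values of 7.19 and 4.78 CPM was not tested.

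Ptbp3 had 9.25 CPM in cerebellum sham female 4, against 4.88 to 6.47 CPM in the other sham females. Hnrnpd had 98.4 CPM in striatum sham female 8, against 78.9 to 84.7 CPM in the others of that group. Tra2b had 81.2 CPM in striatum PCB52 female 18, against 71.0 to 74.1 CPM in the other PCB52 females.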

How the results depend on the processing

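In the region comparison the members called numbered 38 to 43 under all alternatives but sham rats only, which gave 33 (31 of them shared with the 40), and 39 to 41 when 1 library was left out. With the animal as replicate block they numbered 40, of which 39 were shared. In the PCB52 and sex comparisons 0 members were called under every alternative run, with the exception of DESeq2 in cerebellum over both sexes, which called 1 (Hnrnph2, log2 fold change -0.24, DESeq2 adjusted p = 0.0095). The cause was not tested. The sign was reversed for Celf6 in cerebellum of PCB52 females, at -0.15 without the 4 libraries of high ribosomal mean and between -0.11 (without PCB52 female 16) and 0.63 when 1 library was left out, against 0.49 with all libraries. It was also reversed for Srsf3 in the PCB52 effect of striatum minus that of cerebellum, at 0.0089 with the ribosomal covariate against -0.21 without it. Among members named with full statistics, Hnrnpu lost its call under 4 alternatives, Mbnl1 under 2 and Mbnl2 and Luc7l2 under 1 each, and Hnrnpu also lost it in 7 fits that left out 1 library. Srsf5, named with its fold only, lost its call in 13 such fits. Intervals and tests cover the spread between these libraries, and Celf6 in cerebellum rests on about 2 CPM.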
